A study of Mus musculus with 8 samples.

Results

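The genes of the mitochondrial ribosomal proteins were compared between fetal livers of Eklf-/- mouse embryos (KO) and of wild type embryos (WT). They were taken as every gene whose probe sets carry a single platform symbol that starts with Mrpl or Mrps and a number. This gave 76 genes on 156 probe sets, out of 18193 genes with such a probe set on the arrays. Of the 76, 47 are Mrpl genes, named for the large subunit, and 29 are Mrps genes, named for the small subunit. The symbols Mrpl30 and Mrpl53 appear only on probe sets that carry several symbols and were not analysed here.

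Total RNA of E14.5 livers (the E counts days of embryonic life) was hybridized to Affymetrix mouse arrays, with 4 arrays of KO livers (replicates 2 to 5) and 4 of WT livers (replicates 1 to 4). The KO embryos were homozygous for a deleted Eklf gene (Klf1) on the B6 background. The line was made with an engineered Eklf locus in a bacterial artificial chromosome and E2A-Cre mice, and the strain of the WT embryos is not given in the labels. The livers were whole and the cells were not cultured or sorted. All WT labels share 1 code and all KO labels another, and the labels do not say what the codes stand for. Whatever they mark cannot be told apart from the genotype. Nothing in the labels says whether the embryos of a group shared a litter, and the p-values measure the spread between these arrays.

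Mitochondria keep a small genome that encodes core subunits of the respiratory chain, and they translate its messages on ribosomes of their own. All proteins of these mitoribosomes are encoded in the nucleus, made in the cytosol and imported, and they assemble in the matrix on the 16S rRNA of the large subunit and the 12S rRNA of the small subunit. The large subunit joins amino acids and the small subunit reads the mRNA. Some of the proteins have a counterpart in the bacterial ribosome, while others are found only in mitochondria. In the fetal liver the main load is erythropoiesis, in which mitochondria supply heme and are removed at the end of red cell maturation.

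The promoter windows of the members were examined first, because the knocked-out factor EKLF binds the motif CACCC and because known regulators of nuclear genes for mitochondrial proteins bind other short motifs. In the RefSeq windows (GRCm38.p6, 250 bases before to 50 after the start of a gene, 300 bases in all), 67 of the 76 genes had a window and 3 of them had several, 73 windows in all. Letters were searched on both strands. The motifs were CACCC and CCNCNCCC for EKLF, GCGCNTGCG for NRF1, CCGGAAG for GABP and AAGATGGCG for YY1, where N is any base, and the pair for EKLF can overlap. The 6 windows below are of members with large differences between KO and WT and of the single gene that was higher in KO, and they hold each of the motifs at least once. Capitals mark every match in either direction, so that CACCC can appear as GGGTG.
Mrpl27 (chr11:94653541-94653840, plus strand): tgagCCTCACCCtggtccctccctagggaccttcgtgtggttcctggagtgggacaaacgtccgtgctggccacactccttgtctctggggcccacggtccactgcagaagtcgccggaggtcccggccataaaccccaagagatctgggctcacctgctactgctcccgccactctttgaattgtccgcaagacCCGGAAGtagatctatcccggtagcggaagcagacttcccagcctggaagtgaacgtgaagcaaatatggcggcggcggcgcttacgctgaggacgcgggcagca
Mrpl58 (chr11:115403502-115403801, plus strand): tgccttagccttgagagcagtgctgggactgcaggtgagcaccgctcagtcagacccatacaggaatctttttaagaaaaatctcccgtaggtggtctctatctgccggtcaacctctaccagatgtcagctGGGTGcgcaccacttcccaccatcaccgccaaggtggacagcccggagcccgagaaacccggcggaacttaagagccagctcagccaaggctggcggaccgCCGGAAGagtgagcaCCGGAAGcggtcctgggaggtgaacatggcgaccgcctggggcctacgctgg
Mrpl40 (chr16:18876588-18876887, minus strand): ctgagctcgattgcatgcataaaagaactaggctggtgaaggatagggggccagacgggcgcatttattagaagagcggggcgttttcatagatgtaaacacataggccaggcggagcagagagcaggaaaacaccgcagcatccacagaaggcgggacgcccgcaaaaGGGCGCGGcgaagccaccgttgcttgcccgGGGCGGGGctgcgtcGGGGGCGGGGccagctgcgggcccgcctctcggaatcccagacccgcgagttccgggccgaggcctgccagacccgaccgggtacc
Mrpl42 (chr10:95501900-95502199, minus strand): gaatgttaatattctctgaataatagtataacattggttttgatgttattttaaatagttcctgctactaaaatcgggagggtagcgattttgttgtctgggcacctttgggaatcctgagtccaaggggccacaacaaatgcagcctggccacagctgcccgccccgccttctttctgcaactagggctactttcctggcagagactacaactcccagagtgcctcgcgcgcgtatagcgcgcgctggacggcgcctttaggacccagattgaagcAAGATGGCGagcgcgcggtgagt
Mrps26 (chr2:130563507-130563806, plus strand): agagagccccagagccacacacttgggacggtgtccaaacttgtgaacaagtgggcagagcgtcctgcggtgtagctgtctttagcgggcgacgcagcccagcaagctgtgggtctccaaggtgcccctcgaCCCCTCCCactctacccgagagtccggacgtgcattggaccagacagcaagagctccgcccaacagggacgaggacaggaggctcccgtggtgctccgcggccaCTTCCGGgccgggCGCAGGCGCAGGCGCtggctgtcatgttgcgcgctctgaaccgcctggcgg
Mrps30 (chr13:118387203-118387502, minus strand): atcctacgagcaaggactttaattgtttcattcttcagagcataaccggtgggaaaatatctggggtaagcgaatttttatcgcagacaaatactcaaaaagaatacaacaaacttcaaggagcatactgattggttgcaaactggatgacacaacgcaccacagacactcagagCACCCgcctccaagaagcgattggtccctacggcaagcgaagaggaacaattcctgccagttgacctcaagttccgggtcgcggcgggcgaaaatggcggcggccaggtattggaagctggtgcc

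CACCC was found in 37 of the 73 member windows (50.7%) and in 57.5% of all 32851 windows. The longer EKLF letters CCNCNCCC were found in 64.4% of member windows and 49.5% of all windows. The NRF1 letters were in 23.3% of member windows and 6.31% of all, the GABP letters in 34.2% and 8.86%, and the YY1 letters in 11% and 1.4%. Between members called lower in KO (40 windows) and members not called (32 windows), the NRF1 letters stood at 22.5% and 25%, the GABP letters at 35% and 34.4%, CACCC at 45% and 56.2%, CCNCNCCC at 67.5% and 62.5%, and the YY1 letters at 10% and 12.5%. No test was run on these shares, and a match of letters is not a bound site. Mrpl27 holds CACCC inside CCTCACCC and 1 match for GABP, Mrpl58 holds 2 matches for GABP, and Mrps26 holds 2 for NRF1. Mrpl42 holds the YY1 letters and Mrps30 holds only CACCC.

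Klf1 itself was 9.81-fold lower in KO livers. Its log2 signal was 10.81, 10.56, 10.65 and 10.59 on KO arrays 2 to 5 and 14.04, 13.87, 13.98 and 13.90 on WT arrays 1 to 4 (difference -3.29, SE 0.099, limma adjusted p = 5.9e-07). Neither labels nor methods say whether its probe set lies in the deleted stretch. The trimmed mean signal was 500.003 to 500.004 on all 8 arrays, which is the common target of the MAS5.0 scaling. On this scale 34.4% of the 23379 probe sets tested were called higher and 17.7% lower in KO, so 66% of all calls were higher. That share was 50.9% after quantile normalization, 41.9% with the 75th percentile as the scale, 77.5% with the spiked poly-A controls and 96.8% with the hybridisation controls. The hybridisation controls themselves differed by -0.75 on the log2 scale (KO minus WT), and the probe sets for 18S rRNA by -3.90 (exact permutation test, two-sided, p = 0.029, the smallest that 4 against 4 arrays can give). Xist set WT replicate 1 apart, with a log2 signal of 13.03 against 6.17 to 6.84 on the other WT arrays and 5.37 to 6.09 on KO arrays. Alb, the main plasma protein of hepatocytes, stood at 14.85 in KO and 15.47 in WT.

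Most mitochondrial ribosomal protein genes were lower in KO livers. With each gene represented by its brightest tested probe set, 44 of the 76 were called lower (57.9%), 1 was called higher and 31 were not called. Over all 11292 genes tested, 21% were called lower and 25.6% higher. With the hybridisation controls as the scale 0 of the 76 were called lower and 32 higher. On that scale 2.58% of all probe sets tested were called lower and 77.6% higher. The median log2 difference (KO minus WT) of the 76 was -0.40, with quartiles of -0.61 and -0.25, beside 0.060 over all genes. With the hybridisation controls as the scale both medians moved up, to 0.35 for the members and 0.81 for all genes. That scale adds the same amount to every difference, so it could not change the gap of 0.46 between members and all genes. Quantile normalization, which can change the gap, made it smaller. Of the 76, 67 differences were negative and 9 positive. The KO arrays were all below the WT arrays in 42 members (20.9% of all genes tested) and all above them in 1 (24.4% of all genes). In bulk liver RNA, fewer cells of a type and less RNA per cell cannot be told apart. A call means an adjusted p under 0.05 from limma, with Benjamini-Hochberg adjustment over all probe sets tested.

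**Figure D1:**
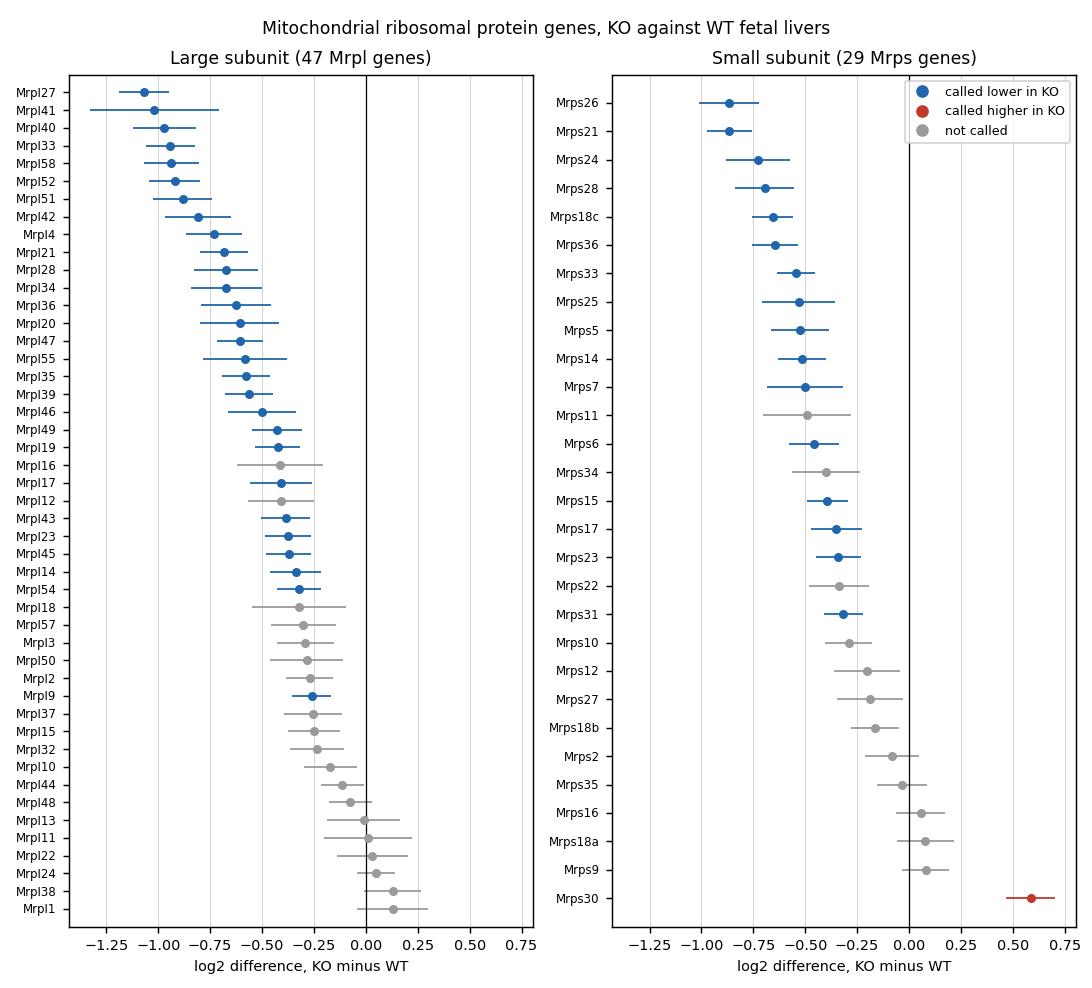
Log2 difference of each mitochondrial ribosomal protein gene, KO minus WT (x axis, points, with bars for the SE from limma), ordered by difference. The large subunit is left and the small subunit right, by symbol. Blue points are called lower in KO, red higher, grey not called. On the deposited scale 44 points are blue and 1, Mrps30, is red. With the hybridisation controls as the scale 0 genes are called lower and 32 higher, beside 2.58% and 77.6% of all probe sets tested.

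The size of the falls was modest. Among the 44 genes called lower, 2 fell by more than 2-fold, 19 by 1.5- to 2-fold and 23 by less than 1.5-fold, the smallest being 1.20-fold for Mrpl9. Mean log2 signals over the 8 arrays ran from 8.83 (Mrps27) to 12.94 (Mrpl51), with a median of 10.96 beside 9.39 for all genes; signals of different probe sets also depend on their probes. Split by level into 3 groups, 15 of the 26 dimmest, 14 of the 25 middle and 15 of the 25 brightest genes were called lower, and the only gene called higher was in the dimmest group. Across the 76 genes the level and the difference had a Pearson r of -0.26 and a Spearman rho of -0.23, and across all genes -0.23 and -0.26. These are descriptions across genes, which share their arrays and are not independent.

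Mrpl27 had the largest fall. It encodes a protein of the large subunit whose bacterial counterpart reaches towards the site where peptide bonds are made. Its log2 signal was 11.57, 11.22, 11.54 and 11.16 on KO arrays 2 to 5 and 12.48, 12.45, 12.43 and 12.41 on WT arrays 1 to 4. The means were 11.37 ± 0.21 in KO and 12.44 ± 0.028 in WT (SD, n = 4 each), a difference of -1.07 (SE 0.12, limma adjusted p = 0.00017), or 2.10-fold lower in KO. The groups did not overlap, and the second probe set of the gene gave -1.02.

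Mrpl41, a mitochondria-only protein of the large subunit, stood at 11.59, 10.11, 11.41 and 10.52 in KO and at 11.89, 11.92, 12.13 and 11.75 in WT. The KO arrays spread over more than a log2 unit, the widest of the genes named here, and all lay below WT. The difference was -1.02 (SE 0.31, limma adjusted p = 0.023), and it was not called without KO replicate 5 (adjusted p = 0.061) or without WT replicate 3 (adjusted p = 0.056), and over the alternatives that kept all arrays its adjusted p ranged up to 0.47. Mrpl40, whose human gene lies in the 22q11 deletion region, had 10.74, 10.25, 10.72 and 10.20 in KO and 11.36, 11.36, 11.58 and 11.50 in WT (difference -0.97, SE 0.15, adjusted p = 0.00095). Mrpl33 had 9.32, 9.27, 9.36 and 9.22 in KO, against 10.12, 10.18, 10.12 and 10.52 in WT (difference -0.94, SE 0.12, adjusted p = 0.00028). It has a bacterial counterpart, and its KO arrays were the closest together of the 10 genes with the largest falls.

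Mrpl58, also known as Ict1, is a peptidyl-tRNA hydrolase built into the large subunit that can free stalled ribosomes. It had log2 signals of 11.15, 10.71, 11.26 and 10.92 in KO and 11.92, 11.99, 12.00 and 11.87 in WT (difference -0.94, SE 0.13, adjusted p = 0.00056). Mrpl52, a mitochondria-only protein, had 11.12, 10.81, 11.11 and 10.82 in KO and 12.07, 11.76, 11.90 and 11.81 in WT (difference -0.92, SE 0.12, adjusted p = 0.00039). Its further probe sets fell more, by 1.32 and 1.25, and the first of these was the largest fall of any member probe set. Mrpl51, also mitochondria-only and the brightest member, had 12.75, 12.30, 12.72 and 12.24 in KO and 13.46, 13.42, 13.29 and 13.37 in WT (difference -0.88, SE 0.14, adjusted p = 0.0011). Mrpl42 had 11.90, 11.40, 11.98 and 11.36 in KO and 12.42, 12.50, 12.52 and 12.43 in WT (difference -0.81, SE 0.16, adjusted p = 0.0031). In all 4 genes the KO arrays lay below WT, and KO replicates 3 and 5 were the lowest.

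In the small subunit the largest falls were Mrps26 and Mrps21. Mrps26, a mitochondria-only protein, had log2 signals of 10.82, 10.33, 10.59 and 10.20 in KO and 11.29, 11.30, 11.45 and 11.37 in WT (difference -0.87, SE 0.14, limma adjusted p = 0.0013). Mrps21, whose bacterial counterpart takes part in initiation, had 10.59, 10.40, 10.52 and 10.24 in KO and 11.40, 11.24, 11.30 and 11.27 in WT (difference -0.87, SE 0.11, adjusted p = 0.00029). Both groups of arrays were apart in both genes. With the hybridisation controls as the scale, none of the 10 largest falls passed the test, although each kept its negative sign (-0.32 for Mrpl27 to -0.060 for Mrpl42).

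**Figure D2:**
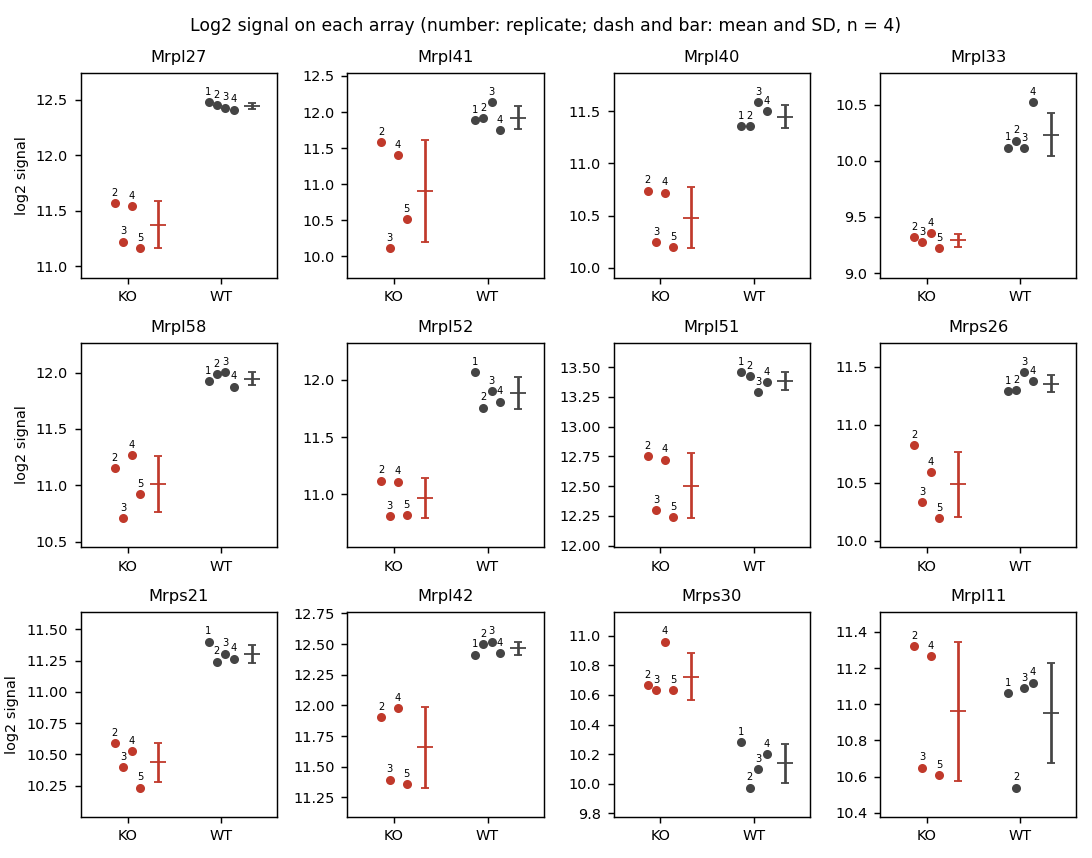
Log2 signal (y axis) of the 10 genes with the largest falls, of Mrps30 and of Mrpl11 on each array, KO left and WT right. Numbers are replicates, and the dash and bar give the mean and SD (n = 4); in the first 10 genes all KO arrays lie below WT, in Mrps30 all lie above, and in Mrpl11 the groups overlap.

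Mrps30 was the only member called higher in KO. Its protein, despite the name, sits in the large subunit. The log2 signal was 10.67, 10.63, 10.96 and 10.63 on KO arrays 2 to 5 and 10.28, 9.97, 10.10 and 10.20 on WT arrays, with no overlap. The difference was 0.59 (SE 0.12, limma adjusted p = 0.0035), from mean signals of 1691 in KO and 1127 in WT. With the 75th percentile as the scale it was 0.32 (adjusted p = 0.050) and was not called.

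Among the genes that were not called, Mrpl11, Mrpl13 and Mrpl22 had the smallest differences. Mrpl11, a protein of the base of the stalk that recruits translation factors, had log2 signals of 11.32, 10.65, 11.27 and 10.61 in KO and 11.06, 10.54, 11.09 and 11.12 in WT (difference 0.0090, SE 0.21). KO replicates 2 and 4 lay above every WT array, and KO replicates 3 and 5 lay below all WT arrays but replicate 2. The further tested probe sets of Mrpl11 differed by -0.28 and -0.19, also not called. Mrpl22, whose bacterial counterpart lines the exit tunnel, had 11.50, 10.97, 11.58 and 10.95 in KO, against 11.32, 11.07, 11.33 and 11.16 in WT (difference 0.031, SE 0.17). Here too the KO arrays lay on both sides of WT. The 2 dimmest members were not called: Mrps27, an RNA-binding protein of the small subunit, differed by -0.19 (SE 0.16), and Mrpl1 by 0.13 (SE 0.17). The second brightest, Mrpl39, fell by 0.56 (SE 0.12, limma adjusted p = 0.0039).

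The subunits were close in counts and medians, and no test of a difference between them was run. By symbol, 28 of 47 large subunit genes were called lower and 0 higher in limma. The count of 0 higher held at an unadjusted p under 0.05 and with the methods' t-test. Among small subunit genes, also by symbol, 16 of 29 were lower and 1 higher. That 1 was Mrps30, whose protein sits in the large subunit, so by place in the ribosome the higher call belongs there. The median difference was -0.41 for the large and -0.39 for the small subunit, and with the hybridisation controls as the scale 0.34 and 0.36. On each array, the median difference from the WT mean of the large less that of the small subunit was -0.10, 0.081, -0.049 and -0.094 in KO, against -0.011, 0.00051, -0.014 and 0.022 in WT. The sign of that gap was not the same on all KO arrays, and the gap of the medians turned to 0.080 when probe sets that can match several transcripts were left out. With Mrps18a and Mrps30, which sit in the large subunit, moved there and Mrps36, now regarded as a part of a matrix dehydrogenase complex, left out, it was 0.011.

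By the number in the symbol, Mrpl genes up to 36 and Mrps genes up to 21 have names taken from bacterial counterparts, and higher numbers are given to proteins found in mitochondria. Of the 33 with higher numbers 22 were called lower (66.7%), and of the 43 with lower numbers 22 (51.2%), beside 21% of all genes lower and 25.6% higher. The medians of the 2 sets of members were -0.43 and -0.37. In the large subunit the counts were 14 of 20 for the mitochondria-only genes and 14 of 27 for those with a counterpart, and in the small subunit 8 of 13 and 8 of 16. These are counts without a test of the difference, and all 4 medians turn positive with the hybridisation controls as the scale, since that scale adds the same amount to the difference of every gene.

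The members were also sorted by role, with the values known. Of all 76 members 57.9% were called lower, and of all genes 21% lower and 25.6% higher. No role was tested against these shares. Of the 4 proteins at or near the peptidyl transferase centre (Mrpl2, Mrpl3, Mrpl16 and Mrpl27), 1 was called lower and the median was -0.35. Of the 5 in the central protuberance, the crown of the large subunit, 3 were called: Mrpl40, Mrpl58 and Mrpl46 (difference -0.50, adjusted p = 0.030), while Mrpl38 (0.13) and Mrpl48 (-0.074) were not. For Mrpl38 this depends on the probe set: of its 3 tested probe sets 1 was called lower, and their differences ran from -0.87 to 0.13. Of the 3 stalk proteins 0 were called. Among them Mrpl12, which contacts the elongation factors, came nearest, with log2 signals of 12.50, 11.87, 12.44 and 12.00 in KO and 12.54, 12.62, 12.76 and 12.52 in WT (difference -0.41, SE 0.16, limma adjusted p = 0.059); its KO arrays were all below WT.

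At the exit tunnel and the inner membrane, Mrpl23 (-0.37, adjusted p = 0.019) and Mrpl45, which holds the ribosome to the membrane (-0.37, adjusted p = 0.020), were called, and Mrpl22 and Mrpl24 (0.047) were not. Of 6 small subunit proteins on the decoding and mRNA path, Mrps5 (-0.52, limma adjusted p = 0.013) and Mrps7 (-0.50, adjusted p = 0.047) were called. Mrps5 had 5 tested probe sets, of which 1 was called lower and 0 higher, with differences from -0.52 to 0.50. Mrps12, the decoding protein, differed by -0.20 (SE 0.16) and Mrps11 by -0.49 (SE 0.21, adjusted p = 0.078). Over all members 57.9% were called lower and 1.32% higher, and over all genes 21% and 25.6%. Of 12 genes mutated in human mitochondrial disease, 5 were called lower and 0 higher, with a median of -0.37. The largest among these was Mrps28 (-0.69, SE 0.14, adjusted p = 0.0036), and Mrps16 differed by 0.057.

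The 4 KO arrays did not fall by the same amount. The median difference of the 76 members from their WT means was -0.24, -0.56, -0.22 and -0.61 on KO replicates 2 to 5, and 0.016, -0.0059, 0.063 and -0.059 on WT replicates 1 to 4. Replicates 3 and 5 were thus lower than 2 and 4, and all KO arrays lay below all WT arrays. Below every WT array were 51 members on KO replicate 2, 68 on replicate 3, 46 on replicate 4 and 68 on replicate 5. The same counts per array were not made over all genes, so these have no share to stand beside. The SD over KO arrays was larger than over WT arrays in 69 of the 76 members (90.8%), beside 72.1% of all genes. The median SDs of the members were 0.22 in KO and 0.088 in WT, and those of all genes 0.22 and 0.14. The poly-A controls, RNAs spiked in before labelling, went the other way on the KO arrays, brightest on replicates 3 and 5, where the members were lowest. Their mean log2 signal was 7.18, 7.54, 7.17 and 7.50 on KO replicates 2 to 5, against 7.45, 7.41, 7.50 and 7.34 on WT replicates. Their part in the spread was not tested. With these controls as the scale, the number of members called lower was 17 and the median -0.32.

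**Figure D3:**
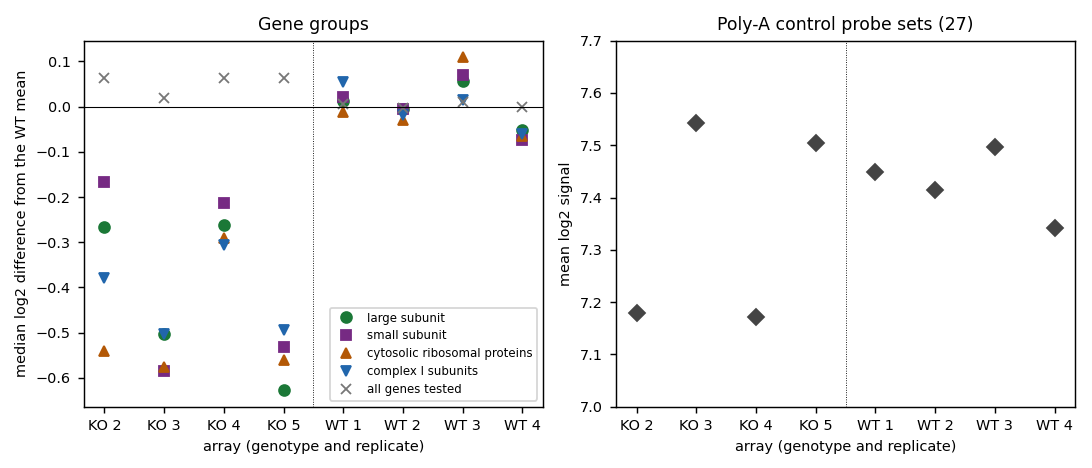
Left, median log2 difference from the WT mean (y axis) of the large and small subunit genes, cytosolic ribosomal protein genes, complex I subunit genes and all genes tested on each array, KO arrays left of the dotted line and WT arrays right; right, mean log2 signal of the poly-A controls on the same arrays. On the deposited scale the median of the 76 members lies between -0.61 and -0.22 on KO arrays and between -0.059 and 0.063 on WT arrays (with the hybridisation controls as the scale the KO minus WT median is 0.35), and KO replicates 3 and 5 have the brightest poly-A controls of the KO arrays.

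The choice of probe set mattered for many of the genes with several tested probe sets. Of the 156 member probe sets 130 were tested, with 62 called lower, 9 higher and 59 not called. A probe set was tested if its KO or its WT mean was above a signal of 100. Higher calls on 1 probe set each of Mrpl13, Mrpl15, Mrpl21, Mrps10, Mrps21 and Mrps9 had a WT mean below that signal. They were tested only through their KO mean. A lower call, on Mrpl34, was tested only through its WT mean. With the filter on the mean over all arrays, 61 were called lower and 6 higher. Of 33 genes with several tested probe sets, 18 had them all on the same side of 0. In 44 genes at least 1 probe set was called lower and none higher, in 4 higher and none lower, in 4 both ways, and 24 had no call. In each of the 4 genes called both ways, the probe set called higher was tested only through its KO mean. Quantile normalization and scaling to the 75th percentile each called 4 probe sets higher in place of 9.

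Mrps21, Mrpl21, Mrpl15 and Mrpl13 were the 4 genes with calls in both directions, and in each the higher call came from the dimmest tested probe set. In Mrps21 this probe set had log2 signals of 7.68, 7.74, 7.73 and 7.76 in KO and 6.24, 6.49, 5.72 and 5.60 in WT. The WT mean is below a signal of 100, the minimum for testing, so that the fold is at least 2.12 (difference 1.71, SE 0.19, limma adjusted p = 0.00016). In Mrpl21 the bright probe set had 10.28, 10.18, 10.50 and 10.08 in KO and 10.87, 11.00, 11.00 and 10.90 in WT (difference -0.68, SE 0.11, adjusted p = 0.0013). The dim one was at least 1.54-fold higher in KO, and its groups overlapped.

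Mrpl15 had 6 tested probe sets. Its 4 brightest differed by -0.27 to -0.17 and were not called, a dimmer one fell by 0.58 (SE 0.15, limma adjusted p = 0.0096), and the dimmest was at least 1.32-fold higher. Mrpl13 was flat on its brightest probe set, at 11.67, 11.66, 12.37 and 11.70 in KO and 12.08, 11.79, 11.83 and 11.74 in WT. Its second probe set fell by 0.37 (SE 0.11, adjusted p = 0.022) and its dimmest was at least 1.43-fold higher. The other higher calls were on dim further probe sets of Mrps10 (at least 1.74-fold) and Mrps9 (mean signals of 150.4 in KO and 95.7 in WT, with WT below 100), on a second one of Mrps9 (difference 0.29) and on one of Mrps2 (difference 0.65), outside the brightest probe set of these genes.

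**Figure D4:**
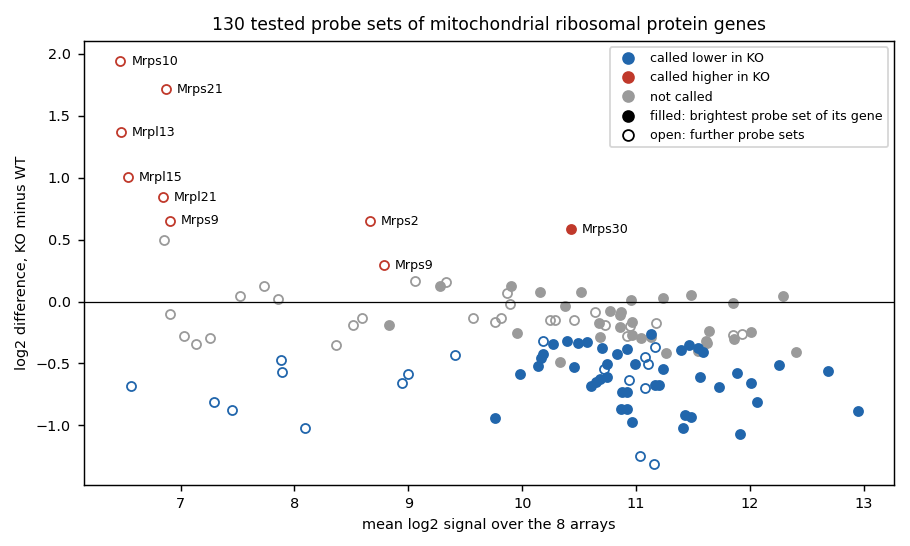
Log2 difference, KO minus WT (y axis), against the mean log2 signal over 8 arrays (x axis) for the 130 tested probe sets of the members; filled points represent their gene. The 9 probe sets called higher in KO are labelled, and 8 of them are not the brightest of their gene. On the deposited scale 62 are called lower, and 2 with the hybridisation controls as the scale. Of all probe sets tested, 17.7% and 2.58% are called lower on these scales.

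The other genes of mitochondrial translation were taken from lists, whose counts on the deposited scale stand beside 21% lower and 25.6% higher over all genes. With the 75th percentile as the scale, 30.9% of all probe sets tested were lower and 22.3% higher. With the hybridisation controls these shares were 2.58% and 77.6%. Each listed gene is given by its brightest tested probe set, and its further probe sets are not given here. Of 4 tested mitoribosomal proteins with other symbols, 2 were called lower: Gadd45gip1, a large subunit protein (difference -0.49, SE 0.10, limma adjusted p = 0.0042), and Chchd1, a small subunit protein (-0.41, adjusted p = 0.037). Of 10 translation factors, 4 were lower and 1 higher (4 and 0 with the 75th percentile as the scale, 0 and 7 with the hybridisation controls). The elongation factor Tsfm, which reloads the GTPase that delivers tRNAs, had 9.84, 9.10, 9.77 and 9.46 in KO and 10.07, 10.39, 10.33 and 10.40 in WT (difference -0.75, SE 0.17, adjusted p = 0.0066). Gfm2, which splits the ribosome after termination, was higher (0.30, SE 0.10, adjusted p = 0.039).

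Of 22 factors of mitoribosome assembly and rRNA modification, 3 were called lower and 2 higher, with a median of -0.054 (10 lower and 1 higher with the 75th percentile as the scale, 0 and 16 with the hybridisation controls). Eral1, a GTPase that chaperones the 12S rRNA, had 9.87, 9.62, 9.96 and 9.90 in KO and 8.77, 8.92, 8.94 and 9.0 in WT (difference 0.93, SE 0.11, limma adjusted p = 0.00021). On this probe set, the brightest of 6 tested for the gene, no KO array overlapped WT. Mrm2, a methyltransferase of the 16S rRNA, fell by 0.83 (SE 0.18, adjusted p = 0.0044). Of 15 mitochondrial tRNA synthetases 2 rose and 2 fell, led by Wars2 (0.70, SE 0.13, adjusted p = 0.0019) and Lars2 (-0.59, SE 0.17, adjusted p = 0.018), and the median was 0.014. With the 75th percentile as the scale 6 of the synthetases were lower and 1 higher, and with the hybridisation controls 0 and 12. Of 11 genes of mitochondrial transcription and mtDNA upkeep 2 fell, with Ssbp1, which coats single-stranded mtDNA, the first (-0.63, SE 0.16, adjusted p = 0.0100), and 0 rose (0 also at an unadjusted p under 0.05 and with the methods' t-test, but 7 lower and 0 higher with the 75th percentile as the scale, and 0 and 9 with the hybridisation controls).

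Of 9 regulators of nuclear genes for mitochondrial proteins, 5 were higher and 1 lower, with a median of 0.47 (1 higher and 1 lower with the 75th percentile as the scale, 8 and 0 with the hybridisation controls). Ppargc1b, a coactivator of such genes, rose by 0.71 (SE 0.20, limma adjusted p = 0.015), and the related coactivator Pprc1 fell by 0.77 (SE 0.13, adjusted p = 0.0012). Of the factors whose motifs were searched above, Nrf1 was higher on the brightest of its 4 tested probe sets (0.60, SE 0.11, adjusted p = 0.0019). Gabpa, the subunit of GABP that binds DNA, differed by 0.016 (adjusted p = 0.93) and Yy1 by 0.16 (adjusted p = 0.19), both not called. Gabpb1, the partner subunit of GABP that does not bind DNA, was higher (0.68, SE 0.16, adjusted p = 0.0075). Of 17 genes of mitochondrial structure, import and chaperones, 10 fell and 0 rose (1 at an unadjusted p under 0.05 in limma, 2 so with the methods' t-test; 0 lower and 11 higher with the hybridisation controls as the scale), with Tomm40, the pore of the outer membrane, the first (-1.04, SE 0.19, adjusted p = 0.0020).

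Families of the cytosolic ribosome and of complex I of the respiratory chain also moved down on the deposited scale. Of 41 cytosolic ribosomal protein genes 31 were called lower and 2 higher, with a median of -0.49, and of 34 complex I genes 23 were lower and 1 higher, with a median of -0.43 (medians that turn positive with the hybridisation controls as the scale). Per array the cytosolic ribosome stood at -0.54, -0.58, -0.29 and -0.56 in KO, and complex I at -0.38, -0.50, -0.31 and -0.49. On KO replicate 2 the median of the mitochondrial ribosome, -0.24, was closer to WT than that of the cytosolic ribosome. Whether the lists differ from one another was not tested.

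**Figure D5:**
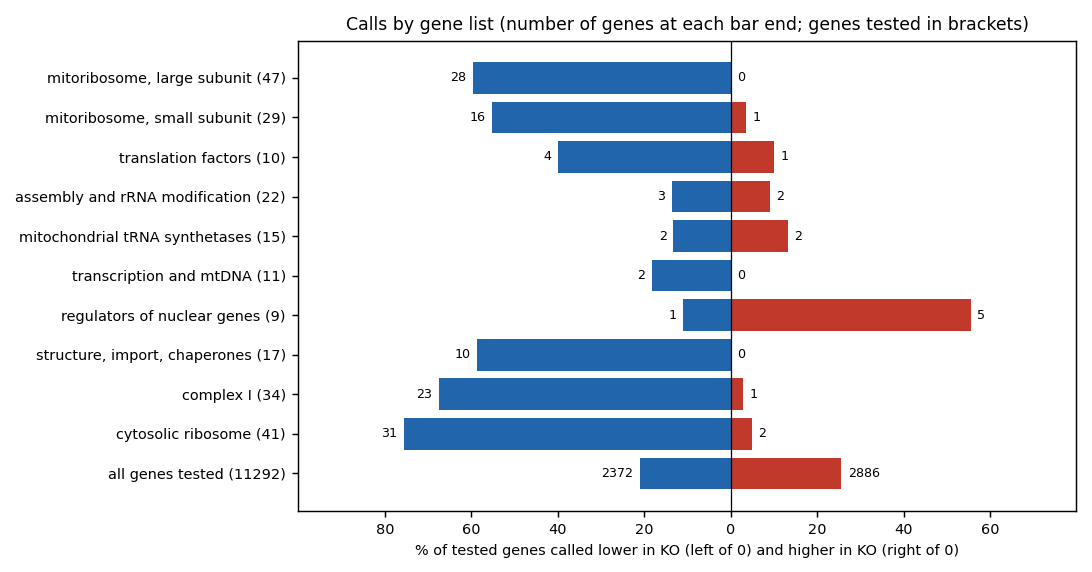
Share of tested genes called lower (bars to the left) and higher (bars to the right) in KO, in %, for the 2 subunits, other lists of mitochondrial genes, 2 further families and all genes tested; the number of genes stands at each bar end. On the deposited scale 28 of 47 large and 16 of 29 small subunit genes, by symbol, are called lower beside 2372 of 11292 genes. Among 22 assembly factors 3 are called lower. With the hybridisation controls as the scale 0 members are called lower, beside 2.58% of all probe sets tested.

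Most lists of cell type markers moved with the same contrast, while the summed signal of macrophage markers overlapped between KO and WT. On the deposited scale 21% of all genes were called lower and 25.6% higher. All 6 erythroid markers tested were lower in KO, with a median of -0.97, and the summed signal of the list ranged from 33765 to 37049 in KO and from 81293 to 84797 in WT. Among 8 hepatoblast and hepatocyte markers, 5 fell and 1 rose (133084 to 168396 in KO, 208585 to 235405 in WT). Of 8 macrophage markers 1 was lower and 0 higher (9499 to 17351 in KO, 14081 to 16936 in WT; 1 was higher at an unadjusted p under 0.05 and 0 with the methods' t-test). Of 7 endothelial markers 5 were higher (6745 to 8109 in KO, 5361 to 5829 in WT), and of 5 megakaryocyte markers 3 (26443 to 33316 in KO, 22898 to 26023 in WT), with 0 lower in both (0 also at an unadjusted p under 0.05 and with the methods' t-test). These counts moved with the scale, as did the shares over all probe sets tested. The shares were 2.58% lower and 77.6% higher with the hybridisation controls, and 30.9% and 22.3% with the 75th percentile. With the hybridisation controls 3 erythroid markers were lower, hepatocyte markers were 0 lower and 3 higher, macrophage markers 1 and 4, and endothelial markers 0 and 7. With the 75th percentile 7 hepatocyte and 5 macrophage markers were lower, and endothelial markers were 1 lower and 2 higher. No marker with values was listed at 0. The 3′ less 5′ log2 signal, a sign of RNA length, went both ways over the 3 control transcripts. It was 0.55 in KO and 0.85 in WT for Actb (exact permutation test, two-sided, p = 0.029), 2.21 in KO and 1.79 in WT for Tfrc (p = 0.029), and -0.20 in KO and -0.16 in WT for Gapdh (p = 0.40). The part of cell makeup, RNA length and scaling in the lower signals of the mitochondrial ribosomal protein genes was not tested.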

How the data were processed

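Expression was measured on 4 KO and 4 WT arrays. The deposited intensities are MAS5.0 signals on a linear scale that the authors computed, 1 value per probe set and array. MAS5 and, at version 3.0.2, R are named in the submitters' processing notes. The values cover 45101 probe sets, more than the array named in the methods holds. Such signals count no molecules, so precision rests on how many arrays there are. No pair of arrays held the same values.

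Here log2 was taken without a pseudocount. Probe sets with a KO or WT mean above a signal of 100 were tested, without control probe sets, in limma 3.58.1 (lmFit and eBayes, genotype only, two-sided, R 4.3.3), and an adjusted p under 0.05 was a call. This step was tested on simulated data. A gene is represented by its tested probe set with the highest mean over 8 arrays. Where a group mean lay below 100, the fold is given against 100. Only probe sets with 1 platform symbol were named. All 76 genes had a RefSeq entry.

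The members and lists were chosen with earlier results of these data known. Named genes were the 10 largest falls and 6 largest rises among those called (1 was called), the 3 smallest differences, genes called both ways, the 2 brightest and 2 dimmest, Klf1, and the largest called rise and fall of each other list; members named by role, Mrpl9, Nrf1, Gabpa, Gabpb1, Yy1, Alb, Actb, Tfrc, Gapdh and Xist were added after their values were seen. Alternatives were 4 other scalings, pseudocounts of 16 and 64, other filters, limma trend and robust, the methods' t-test, a replicate block, leaving out each array, and other ways to represent a gene. Counts and medians were made in Python 3.11.15 (pandas 2.3.3, numpy 2.4.6, scipy 1.17.1).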

Additional observations from a re-analysis of the deposited data

Results flagged for a closer look

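Of 42 groups of 4 arrays examined, 4 held an array that stood apart from the other 3 by more than Dixon's critical share of the whole range, and chance gives about 1 in 20. KO replicate 4 stood apart in Mrps30, at a log2 signal of 10.96 beside 10.63 to 10.67 on the other KO arrays, and in Mrpl13, at 12.37 beside 11.66 to 11.70. In Mrpl33, WT replicate 4 stood at 10.52 beside 10.12 to 10.18 on the other WT arrays. In Mrpl11, WT replicate 2 stood at 10.54 beside 11.06 to 11.12. Without KO replicate 4 Mrps30 was still called higher, and without WT replicate 4 Mrpl33 was still called lower, while Mrpl11 and Mrpl13 were called neither with nor without the array. No explanation was tested.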

How the results depend on the processing

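With the hybridisation controls as the scale, 2 member probe sets were called lower and 65 higher, 0 genes lower and 32 higher (limma; at an unadjusted p under 0.05, 0 lower and 38 higher), and the medians turned to 0.35 for the members, 0.34 for the large and 0.36 for the small subunit. Single genes turned too: Mrpl13 to 0.74, Mrpl21 to 0.065, Mrpl15 to 0.50, Mrpl39 to 0.19 and Mrps27 to 0.56. On that scale 2.58% of all probe sets tested were called lower and 77.6% higher. It adds a constant to every gene of an array, so that the members stayed 0.46 below all genes. With the 75th percentile, 94 probe sets were lower and 4 higher, 63 genes lower and 0 higher (1 at an unadjusted p under 0.05; Mrps30 at adjusted p = 0.050), and the medians were -0.66 for the members, -0.68 for the large and -0.66 for the small subunit. Quantile normalization called 4 probe sets higher and put the members 0.28 below all genes (difference -0.28), the poly-A controls called 21 probe sets and 17 genes lower, no filter 32 and 23, a filter at a signal of 200 called 4 probe sets higher, and the methods' t-test with Benjamini-Hochberg adjustment called 39 probe sets and 29 genes lower (60 and 41 unadjusted). Leaving out probe sets with the suffixes x, s and a gave 38 probe sets lower, 4 genes higher and a large less small difference of 0.080 in place of -0.015. The causes were not tested, apart from the constant shift.

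Leaving out 1 array at a time gave 43 to 67 probe sets lower and 7 to 10 higher, 31 to 48 genes lower and 1 higher, and medians of -0.47 to -0.34 for the members, -0.48 to -0.34 for the large and -0.44 to -0.31 for the small subunit, -0.062 to -0.0014 between them and -0.53 to -0.39 between members and all genes. The replicate numbers do not pair the arrays (correlation of deviations -0.00084, -0.082 and -0.027 for numbers 2, 3 and 4, and no array was closest to its own number). With the replicate block over these numbers 19 probe sets and 15 genes were called lower, and without the block on the same 6 arrays, a comparison chosen after seeing the data, 31 and 23.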
